A study of Mus musculus with 18 samples.

Results

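Cell cycle and DNA replication genes were followed through osteoclast formation as a group of 42 genes, picked by name from the 34745 genes of 1 expression table. All 42 were found once in the table and all passed the filter on low counts, which left 14241 genes for testing. They comprised 9 G1 cyclins, their kinases and E2f1, 9 genes of origin licensing with the replication clamp Pcna, 3 of nucleotide synthesis, 4 S, G2 and M phase cyclins with Cdk1, 12 mitotic kinases, spindle and kinetochore genes, the 2 proliferation markers Mki67 and Top2a, and 3 inhibitors of cyclin-dependent kinases (CDKs). The RNA came from bone marrow-derived macrophages (BMDMs) of Zmat1 knockout mice (genotype label "Zmat1 ko") and of their wild-type littermates (genotype label "wilde type"), on a C57BL/6 background. Zmat1 encodes a zinc finger protein, and the allele was carried by the whole animal rather than deleted in one cell type by Cre. Marrow cells were taken from mice 4 to 8 weeks old and cultured with M-CSF, the growth and survival factor of macrophages, in all 6 groups. RANKL, the cytokine that turns these precursors into osteoclasts, was given for 1 day or 3 days, and the day 0 cells received M-CSF without RANKL. Each of the 6 groups (WT and KO, days 0, 1 and 3) held 3 libraries, with total counts from 13789775 to 17559958, and nothing in the labels says which libraries came from separate animals, so the p-values measure the spread between these libraries.

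Zmat1 itself was counted in every library labelled KO (at least 49 reads, against at least 32 in those labelled WT). WT and KO below therefore name the labels of the libraries and not a loss of the gene verified in these reads. The paper reports PCR genotyping of the mice and qPCR of Zmat1 in BMDMs of both genotypes. The labels do not tie those samples to these libraries. The titles were written in 2 styles, with a double hyphen in 5 (WT day 0 library 1, KO day 0 library 2, KO day 1 libraries 1 and 2, and 1 of the 2 libraries of WT day 1 that carry number 1). The other 13, among them all 6 of day 3, had a single hyphen. The labelled cell type was checked on marker lists. All 10 macrophage markers were detected in each group. Their sums were 32560 to 62223 CPM (counts scaled to library size) on days 0 and 1 and 6639 to 18393 CPM on day 3. The sum of 10 osteoclast markers ran from 224 to 1221 CPM on days 0 and 1. On day 3 it ran from 16039 to 23381 CPM in WT and from 8293 to 17734 CPM in KO. The stromal sums of KO day 3, given below, were higher, at 18337 to 26107 CPM. Calcr, the calcitonin receptor gene on the osteoclast list, was at 0 in every library of days 0 and 1.

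The cell cycle is driven by cyclins, which bind and activate CDKs, and is held back by CDK inhibitors. Growth factors act first on the D-type cyclins, which with Cdk4 and Cdk6 phosphorylate the retinoblastoma proteins and free E2F factors to switch on the genes of DNA replication. Genes of mitosis are switched on later in the cycle, through MuvB complexes that bind CHR promoter elements. Osteoclasts form by fusion of mononuclear precursors. The precursors divide under M-CSF, and the fused, resorbing cell has left the cycle, which is the background to the question of how these genes behave as RANKL acts.

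From day 0 to day 3 those of the 42 genes that passed the test rose, apart from 1 CDK inhibitor. In the WT libraries 16 of the 42 rose and 1 fell at an adjusted p under 0.05 (edgeR's quasi-likelihood test, Benjamini-Hochberg over all genes tested), where 23.7% of all genes tested rose and 26.5% fell. In the KO libraries 4 rose and 1 fell, where 20.2% of all genes rose and 22.3% fell, so the share of these genes that rose was below that of all genes. The median log2 fold change of the 42 was 1.41 in WT and 0.56 in KO, beside -0.03 and -0.01 over all genes tested. With the title style in the model the medians were 0.97 and 0.17, and with single-hyphen libraries alone 1.25 and 0.34. Leaving out library 2 of KO day 0 made the KO median 0.31, and leaving out library 3 made it 0.89. The genes that rose in both were Ccnd1, Ccnd2, Cdk4 and Cdk6, all of the G1 group, and the 1 that fell in both was Cdkn1a, which encodes the CDK inhibitor p21. In WT the other 12 that rose were Ccne1, Ccne2, Cdt1, Mcm2, Mcm6, Rrm1, Ccnb1, Bub1, Bub1b, Kif11, Cenpe and Cdc20. Without any overlap, the 3 WT libraries of day 3 lay above the 3 of day 0 for 34 of the 42 genes, against 31.5% of all genes tested, and those of KO did so for 17 of the 42, against 29.4% of all genes. The WT count of 17 genes was 34 without WT day 0 library 3, where 52.6% of all genes were called. It was 6 to 9 without any one of the other 5 WT libraries of these days, where 39.4% to 41.7% were called. The KO count of 5 was 3 without any one of KO day 0 libraries 1, 2 and 3 and KO day 3 libraries 1 and 2. In those fits 30.6% to 35.2% of all genes were called. With all libraries 50.2% of all genes were called in WT and 42.5% in KO. The calls for Ccnd2, Cdk4, Cdk6, Cdt1, Mcm6 and Cdkn1a in WT, and for Ccnd2, Cdk4 and Cdkn1a in KO, were made in all 15 alternative fits.

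**Figure D1:**
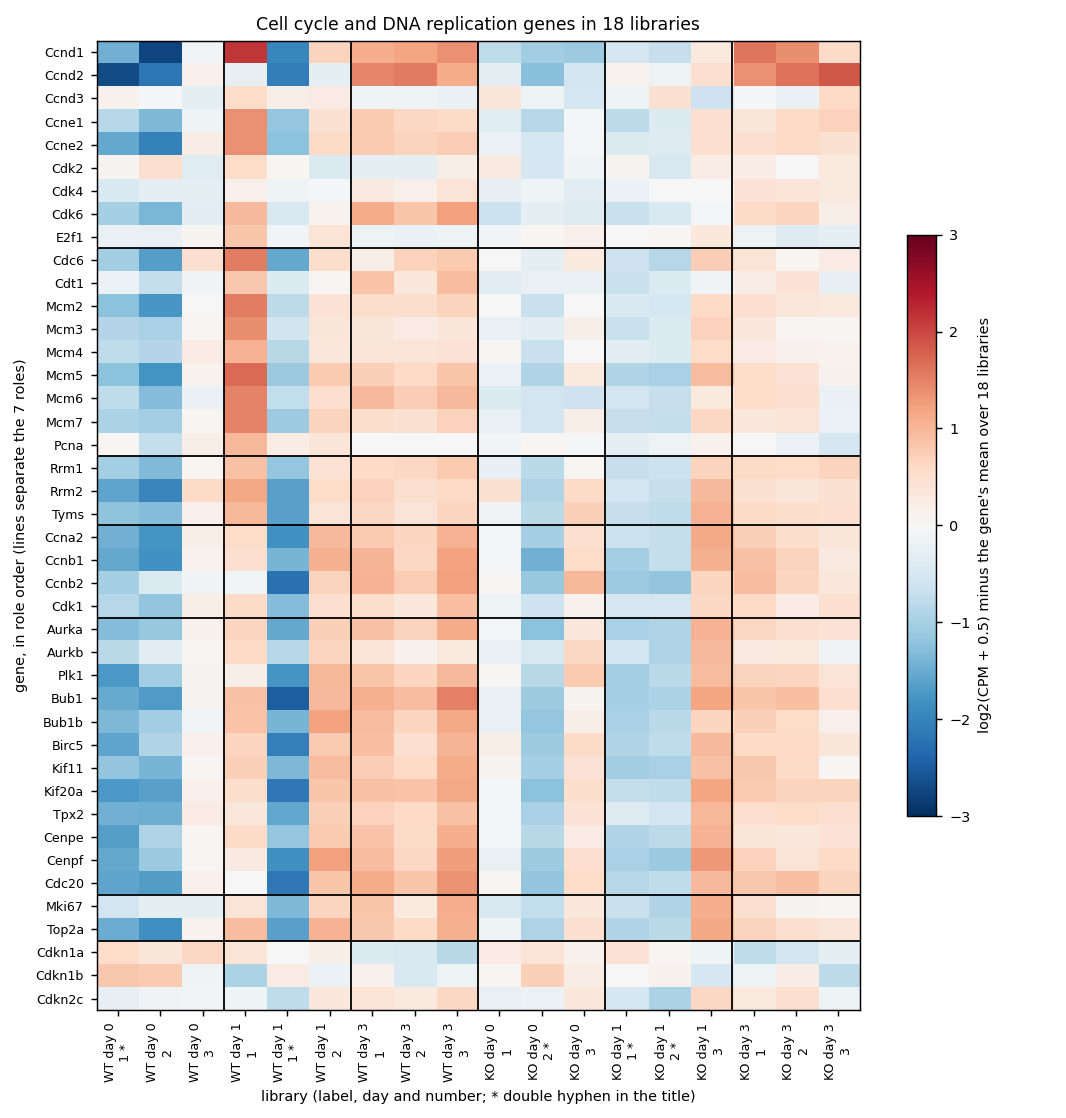
The 42 genes (rows, in role order, with lines between the 7 roles) in the 18 libraries (columns, lines between the 6 groups), and colour gives log2(CPM + 0.5) minus the gene's mean over the libraries, and an asterisk marks a double hyphen in the title. The day 3 columns are of even colour, while day 0 and day 1 groups hold both low and high libraries, and Cdkn1a and Cdkn1b run against the rest.

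Before RANKL and on day 1, libraries of the same group lay far apart in these genes. The mean log2 CPM of the 42 genes was 4.20, 4.11 and 5.28 in WT day 0 libraries 1, 2 and 3, and 5.11, 4.53 and 5.40 in those of KO day 0. On day 1 it was 5.97 in the single-hyphen WT library 1, 4.03 in the double-hyphen WT library 1 and 5.78 in WT library 2, and 4.62, 4.62 and 5.86 in KO libraries 1, 2 and 3. On day 3 all 6 lay between 5.50 and 5.99. The 5 double-hyphen libraries and WT day 0 library 2 were thus the 6 lowest, at 4.03 to 4.62, and the next library was at 5.11. Over the 42 genes the median SD of log2 CPM within a group was 0.76 in WT day 0, 1.25 in WT day 1, 0.48 in KO day 0 and 0.84 in KO day 1, but 0.18 in each day 3 group, while over all genes tested it ran from 0.17 to 0.31 across the 6 groups. The SD was above the 90th percentile of all genes for 24 of the 42 in WT day 1 and 21 in KO day 1. It was so for 4 in WT day 0 and 3 in KO day 0, near the share of all genes that this percentile leaves above it. With the title style added to the model, 31 of the 42 genes were lower and 1, Cdkn1b, was higher in double-hyphen libraries, where 13.3% of all genes tested were lower and 9.94% higher. The steepest of the 31 were Cenpf at -1.90, Kif20a at -1.88 and Bub1 at -1.87 on the log2 scale. In bulk RNA, fewer dividing cells and less of these transcripts per cell cannot be told apart.

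Markers of other cells also varied between libraries of the same group. The summed CPM of 10 stromal and osteoblast markers, all of which were detected in each group, ran from 78.6 to 4325 on WT day 0, 911 to 3207 on KO day 0, 196 to 2534 on WT day 1 and 1996 to 7301 on KO day 1, and on day 3 from 10084 to 13092 in WT and from 18337 to 26107 in KO. In each of the 4 groups of days 0 and 1 the library with the highest stromal sum was also the one with the highest mean of the 42 genes, and in neither day 3 group was it. Col1a1, a collagen chain made by fibroblasts and osteoblasts, spanned 29.2 to 2011 CPM among the WT day 0 libraries. The sum of 10 neutrophil and precursor markers, also all detected, was 719 to 3109 CPM on WT day 0. On KO day 0 it was 3770 to 12078 CPM, and library 3 was the highest in both labels. On day 3 it was 39.5 to 70.9 CPM in WT and 103 to 1184 CPM in KO. The labels overlapped on day 1 (388 to 2233 CPM in WT, 1523 to 3280 CPM in KO) but not on days 0 and 3. WT day 0 library 1, at 2702 CPM, was close to library 3, at 3109 CPM. On WT day 1 the double-hyphen library 1 had the highest sum (2233 CPM, against 388 and 518) and the lowest mean of the 42 genes. On KO day 1 library 3 was the highest in both, with a sum of 3280 CPM. The part of these cells in the levels of the 42 genes was not tested.

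The D-type cyclins, which carry the growth factor signal to Cdk4 and Cdk6, were led by Ccnd1 and Ccnd2, which passed the test in both labels, whereas Ccnd3 passed in neither. In the values that follow, libraries are given in the order 1, 2 and 3, and for WT day 1 in the order single-hyphen library 1, double-hyphen library 1 and library 2. Ccnd1 (cyclin D1; ENSMUSG00000070348, chromosome 7, 144929931 to 144939869 on GRCm38) was at 28.3, 11.0 and 73.6 CPM on day 0, 343, 19.4 and 123 on day 1 and 166, 175 and 202 on day 3 in WT. Its KO levels were 45.6, 37.1 and 35.9 CPM on day 0, 54.6, 47.8 and 95.0 on day 1 and 236, 205 and 115 on day 3. Every day 3 library lay above every day 0 library of its label, and the log2 fold change was 2.26 ± 0.76 (SE, adjusted p = 0.0230) in WT and 2.23 ± 0.76 (SE, adjusted p = 0.0289) in KO. Ccnd2 (cyclin D2; ENSMUSG00000000184, chromosome 6, 127125162 to 127152193) was at 5.94, 8.67 and 45.0 CPM on day 0, 34.0, 9.25 and 33.0 on day 1 and 112, 120.4 and 88.0 on day 3 in WT. The KO libraries held 33.0, 16.8 and 27.7 CPM on day 0, 43.9, 36.7 and 57.2 on day 1 and 106, 127 and 150.0 on day 3. The day 3 libraries again stood above all the others, with 2.42 ± 0.62 (SE, adjusted p = 0.00522) in WT and 2.30 ± 0.62 (SE, adjusted p = 0.00856) in KO, the largest estimate among the 42 genes in both labels. Day 3 against day 1 gave 2.07 ± 0.61 (SE, adjusted p = 0.0191) in WT and 1.47 ± 0.60 (SE, adjusted p = 0.0775) in KO. Ccnd3 (cyclin D3) was at 41.7, 36.8 and 30.7 CPM on day 0, 55.9, 43.8 and 45.3 on day 1 and 34.5, 34.2 and 32.9 on day 3 in WT. Levels in KO were 49.1, 34.0 and 26.1 CPM on day 0, 33.8, 52.7 and 24.3 on day 1 and 36.8, 33.0 and 57.6 on day 3. Days 0 and 3 overlapped in both labels, and the differences between them were -0.10 ± 0.28 (SE, adjusted p = 0.776) and 0.22 ± 0.28 (SE, adjusted p = 0.541). As FPKM, which is scaled by exon length and so can be set between genes, WT day 3 held 50.5 ± 6.27 of Ccnd1, 10.1 ± 1.38 of Ccnd2 and 2.44 ± 0.0373 of Ccnd3 (mean ± SD, n = 3), and WT day 0 held 8.25 ± 7.39, 1.51 ± 1.69 and 2.03 ± 0.214.

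**Figure D2:**
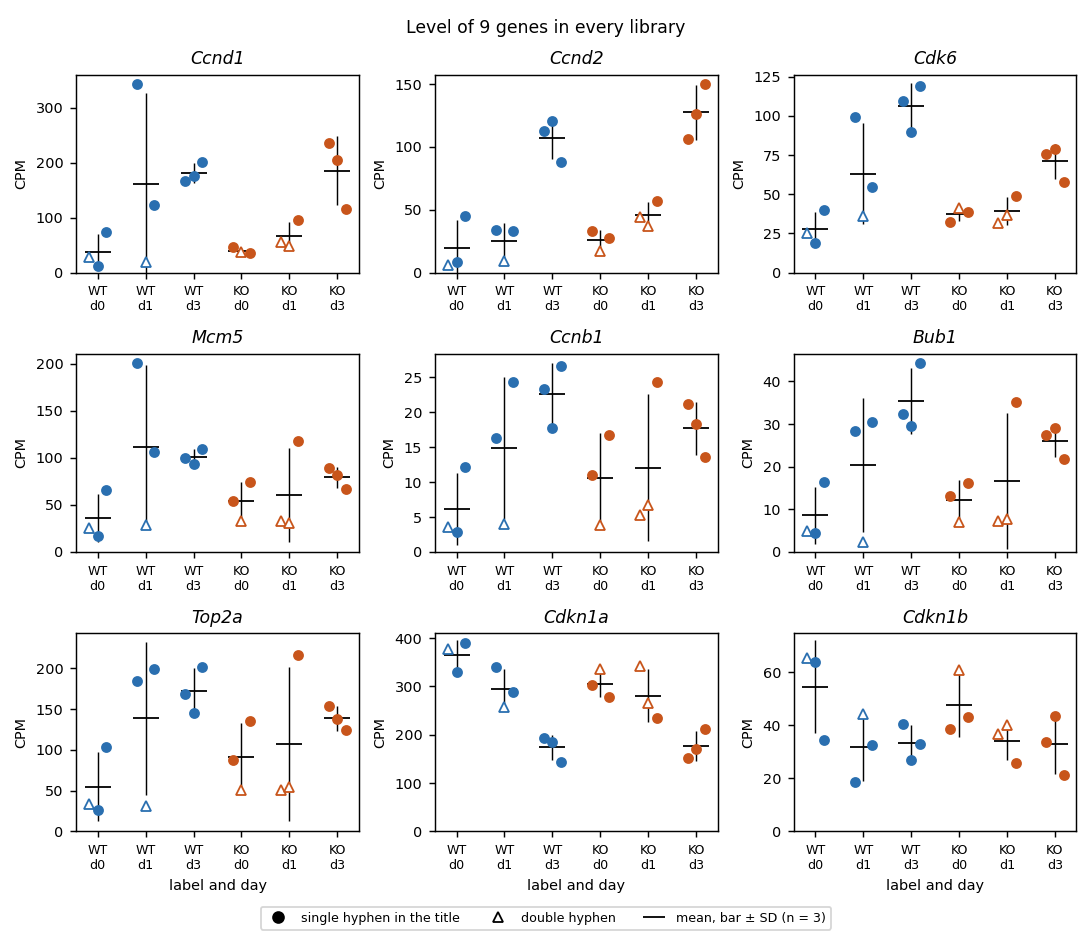
Level in CPM (vertical axes, linear, from 0) of 9 genes in each library of the 6 groups; points are libraries, triangles those with a double hyphen in the title, and bars the mean ± SD (n = 3). Ccnd2 stands higher in all 6 day 3 libraries than in any other, Cdkn1a lower, and Mcm5, Ccnb1, Bub1 and Top2a have their widest spread on day 1.

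Of the kinases of G1, Cdk6 (chromosome 5, 3341485 to 3531008) was at 25.2, 19.1 and 39.97 CPM on day 0, 99.2, 36.0 and 54.4 on day 1 and 109, 89.9 and 119 on day 3 in WT. The 3 KO groups had 32.2, 41.5 and 38.7 CPM on day 0, 31.6, 36.5 and 49.1 on day 1 and 76.0, 79.0 and 57.9 on day 3. Day 3 lay above day 0 without overlap in both labels, with 1.92 ± 0.33 (SE, adjusted p = 0.000347) in WT and 0.92 ± 0.32 (SE, adjusted p = 0.0321) in KO. Cdk4, the partner of the same cyclins (chromosome 10, 127063534 to 127067920), varied little between libraries and moved by a small step of 0.62 ± 0.11 (SE, adjusted p = 0.000351) in WT and 0.61 ± 0.11 (SE, adjusted p = 0.000604) in KO. Its step after day 1 also passed the test, with 0.29 ± 0.11 (SE, adjusted p = 0.0470) in WT and 0.42 ± 0.11 (SE, adjusted p = 0.00981) in KO. Cdk2, which pairs with cyclin E and cyclin A, was at 37.9, 51.1 and 27.7 CPM on WT day 0 and 29.3, 29.0 and 40.7 on WT day 3. On KO days 0 and 3 it was at 43.0, 24.9 and 32.6 and at 41.7, 36.1 and 43.7 CPM. These groups overlapped, and the differences were -0.24 ± 0.28 (SE, adjusted p = 0.494) in WT and 0.27 ± 0.28 (SE, adjusted p = 0.455) in KO.

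The E-type cyclins, which act at the entry to S phase, were counted at low levels. Ccne1 was at 5.19, 3.56 and 9.01 CPM on day 0, 26.3, 4.17 and 13.6 on day 1 and 17.2, 15.4 and 14.8 on day 3 in WT, a rise from day 0 to day 3 of 1.41 ± 0.52 (SE, adjusted p = 0.0348). In KO it was at 7.56, 5.23 and 9.54 CPM on day 0, 5.51, 7.23 and 14.2 on day 1 and 12.9, 15.1 and 16.2 on day 3, where the difference was 0.98 ± 0.51 (SE, adjusted p = 0.133). Both day 3 groups stood clear of their day 0 groups. Ccne2 was at 2.97, 1.93 and 11.2 CPM on day 0, 25.3, 3.75 and 14.3 on day 1 and 16.7, 15.3 and 16.4 on day 3 in WT, with 1.58 ± 0.60 (SE, adjusted p = 0.0418). Its KO levels of 8.34, 6.46 and 9.10 CPM on day 0, 7.05, 7.16 and 13.4 on day 1 and 13.3, 14.6 and 13.1 on day 3 gave 0.78 ± 0.59 (SE, adjusted p = 0.302). For both genes the single-hyphen WT day 1 library 1 was the highest of all 18 libraries. E2f1, the activating E2F factor, was at 37.0, 36.2 and 45.2 CPM on day 0, 76.1, 40.3 and 56.9 on day 1 and 38.3, 37.0 and 37.9 on day 3 in WT. Its KO levels were 39.9, 44.5 and 47.5 CPM on day 0, 43.0, 43.9 and 52.8 on day 1 and 38.2, 32.7 and 34.6 on day 3. In WT all 3 libraries of day 3 lay below those of day 1, a log2 difference of -0.62 ± 0.18 (SE, adjusted p = 0.0172), and against day 0 the differences were -0.06 ± 0.18 (SE, adjusted p = 0.778) in WT and -0.32 ± 0.18 (SE, adjusted p = 0.154) in KO.

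Origin licensing loads the MCM helicase, a ring of 6 subunits from Mcm2 to Mcm7, onto DNA with the help of Cdc6 and Cdt1. All 9 genes of the licensing group had a log2 fold change above 0 in WT between days 0 and 3, with a median of 1.05. Of these, 3 passed the test (Cdt1, Mcm2 and Mcm6, 33.3%), where 23.7% of all genes tested rose. In KO the median was 0.36 and none passed in edgeR or in DESeq2, where 42.5% and 46.8% of all genes did. None had an unadjusted p under 0.05 in edgeR, where 51.6% of all genes did. Mcm6 (chromosome 1, 128331590 to 128359664) had the largest rise, at 50.2, 34.4 and 75.2 CPM on day 0, 243, 51.3 and 122 on day 1 and 169, 144 and 169 on day 3 in WT. The KO libraries held 64.9, 58.8 and 55.6 CPM on day 0, 58.1, 53.3 and 104 on day 1 and 126, 119.6 and 74.9 on day 3. That was 1.59 ± 0.44 (SE, adjusted p = 0.00801) in WT and 0.84 ± 0.43 (SE, adjusted p = 0.129) in KO, and in both labels the day 3 libraries lay above those of day 0. Mcm5 was at 25.8, 17.3 and 65.6 CPM on day 0, 201, 28.2 and 106 on day 1 and 99.9, 92.9 and 109.8 on day 3 in WT. Levels in KO were 54.5, 32.7 and 74.4 CPM on day 0, 32.4, 31.1 and 118 on day 1 and 89.1, 82.2 and 66.6 on day 3. The WT day 3 libraries were above those of day 0 and within the range of day 1, and neither 1.48 ± 0.65 (SE, adjusted p = 0.0715) in WT nor 0.56 ± 0.64 (SE, adjusted p = 0.501) in KO passed. Mcm3, Mcm4 and Mcm7 had 0.85, 0.77 and 1.12 in WT, without a call. Mcm2 rose by 1.40 ± 0.51 (SE, adjusted p = 0.0350), and Cdt1 (ENSMUSG00000006585, chromosome 8) by 1.05 ± 0.29 (SE, adjusted p = 0.00761), from 35.4, 23.8 and 36.8 CPM to 72.2, 50.05 and 76.2 CPM.

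Cdc6 was at 3.96, 2.40 and 12.5 CPM on day 0, 26.0, 2.67 and 12.6 on day 1 and 9.86, 14.2 and 15.3 on day 3 in WT. The 3 KO groups had 8.77, 6.999 and 10.6 CPM on day 0, 5.45, 4.58 and 14.8 on day 1 and 11.6, 8.99 and 10.3 on day 3. Days 0 and 3 overlapped in both labels, at 1.05 ± 0.68 (SE, adjusted p = 0.203) and 0.23 ± 0.67 (SE, adjusted p = 0.804). Pcna, the sliding clamp that also serves DNA repair, had the smallest difference of the group, at 108, 63.6 and 120.0 CPM on day 0, 212, 122 and 136 on day 1 and 104.6, 105.1 and 104 on day 3 in WT. In KO it was at 99.1, 109 and 102 CPM on day 0, 85.3, 93.8 and 114 on day 1 and 104.7, 93.5 and 73.4 on day 3. Days 0 and 3 overlapped, with 0.11 ± 0.23 (SE, adjusted p = 0.713) in WT and -0.19 ± 0.23 (SE, adjusted p = 0.517) in KO. Every one of the licensing genes was highest of all 18 libraries in the single-hyphen WT day 1 library 1, except Cdt1, for which WT day 3 libraries 1 and 3 were higher.

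Ribonucleotide reductase, built from Rrm1 and Rrm2, and thymidylate synthase (Tyms) supply the DNA precursors. Rrm1 was at 46.0, 37.1 and 98.0 CPM on day 0, 174, 41.5 and 128 on day 1 and 143, 144 and 161 on day 3 in WT and rose by 1.31 ± 0.48 (SE, adjusted p = 0.0351). Its KO levels were 78.5, 53.7 and 96.0 CPM on day 0, 57.7, 59.6 and 149 on day 1 and 139, 137 and 149.8 on day 3, with 0.90 ± 0.48 (SE, adjusted p = 0.139). Day 3 lay above day 0 in both labels. Rrm2, the subunit made in S phase, was at 15.0, 11.2 and 67.9 CPM on day 0, 103, 14.3 and 67.5 on day 1 and 74.0, 63.6 and 69.2 on day 3 in WT. The KO libraries held 62.8, 24.1 and 68.6 CPM on day 0, 30.6, 27.9 and 90.5 on day 1 and 62.5, 58.7 and 63.3 on day 3. WT day 0 library 3 and KO day 0 libraries 1 and 3 lay within or above the range of the day 3 libraries of their label, and the differences were 1.13 ± 0.71 (SE, adjusted p = 0.192) and 0.25 ± 0.70 (SE, adjusted p = 0.796). Tyms had 1.21 ± 0.64 (SE, adjusted p = 0.125) in WT and 0.47 ± 0.63 (SE, adjusted p = 0.566) in KO.

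Cyclin A2 and the B-type cyclins with Cdk1 take the cell through S phase and G2 into mitosis. Ccnb1 (cyclin B1), the member of this group that passed the test, was at 3.54, 2.86 and 12.2 CPM on day 0, 16.3, 3.9998 and 24.3 on day 1 and 23.3, 17.7 and 26.6 on day 3 in WT. Levels in KO were 11.1, 3.85 and 16.7 CPM on day 0, 5.32, 6.66 and 24.3 on day 1 and 21.2, 18.3 and 13.7 on day 3. The WT days 0 and 3 did not overlap and the KO days did, with 1.86 ± 0.73 (SE, adjusted p = 0.0467) in WT and 0.75 ± 0.71 (SE, adjusted p = 0.414) in KO. Ccna2 was at 17.5, 13.9 and 54.4 CPM on day 0, 71.1, 13.2 and 95.1 on day 1 and 83.1, 75.7 and 99.7 on day 3 in WT. The 3 KO groups had 47.1, 24.1 and 69.1 CPM on day 0, 30.9, 29.4 and 107 on day 1 and 79.3, 69.7 and 61.7 on day 3. This gave 1.59 ± 0.68 (SE, adjusted p = 0.0629) in WT and 0.59 ± 0.66 (SE, adjusted p = 0.493) in KO. Cdk1 was at 16.0, 12.7 and 34.0 CPM on day 0, 43.9, 11.7 and 42.1 on day 1 and 42.8, 36.8 and 55.0 on day 3 in WT. In KO it was at 26.2, 18.8 and 32.2 CPM on day 0, 20.6, 20.6 and 45.1 on day 1 and 44.9, 35.2 and 41.0 on day 3. Day 3 stood clear of day 0 in both labels, yet neither 1.10 ± 0.46 (SE, adjusted p = 0.0599) nor 0.65 ± 0.46 (SE, adjusted p = 0.269) passed. Ccnb2 had 1.51 ± 0.66 (SE, adjusted p = 0.0682) in WT and 0.46 ± 0.64 (SE, adjusted p = 0.586) in KO.

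**Figure D3:**
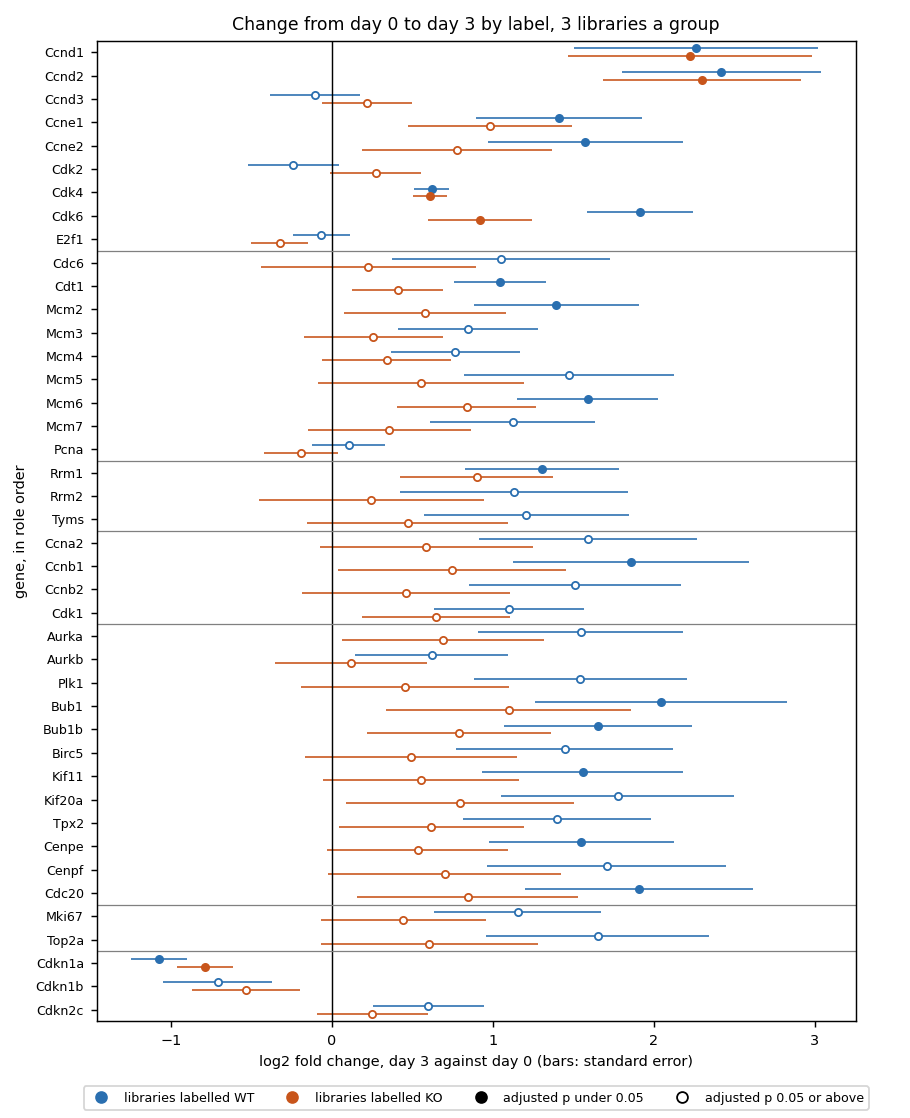
Log2 fold change of day 3 against day 0 (horizontal axis, bars the standard error) for each of the 42 genes in role order, in the libraries labelled WT (blue) and KO (orange), 3 libraries a group; filled points passed an adjusted p under 0.05. WT points lie to the right of KO points for most replication and mitosis genes, with standard error bars that overlap for most of them, and Ccnd1, Ccnd2 and Cdk4 have like values in both labels.

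The 12 genes of the mitotic kinases, the spindle and the kinetochore had a median log2 fold change of 1.56 in WT and 0.66 in KO from day 0 to day 3. In WT 5 of the 12 rose, where 23.7% of all genes tested did. At an unadjusted p under 0.05, 11 were higher, where 27.8% of all genes tested were. In KO none passed in edgeR or DESeq2, where 42.5% and 46.8% of all genes did. None had an unadjusted p under 0.05 in edgeR, where 51.6% of all genes did. Bub1, a kinase of the spindle checkpoint, rose most, at 5.03, 4.33 and 16.3 CPM on day 0, 28.4, 2.33 and 30.4 on day 1 and 32.5, 29.6 and 44.3 on day 3 in WT. Its KO levels were 13.1, 7.08 and 16.2 CPM on day 0, 7.37, 7.66 and 35.1 on day 1 and 27.4, 29.1 and 21.8 on day 3. The day 3 libraries lay above those of day 0 in both labels, with 2.04 ± 0.78 (SE, adjusted p = 0.0416) in WT and 1.10 ± 0.76 (SE, adjusted p = 0.255) in KO. The other 4 that rose in WT were Cdc20, which activates the anaphase-promoting complex, by 1.91, the checkpoint protein gene Bub1b by 1.66, the spindle motor Kif11 by 1.56 and the kinetochore motor Cenpe by 1.55, all with adjusted p from 0.0291 to 0.049996.

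Plk1, a kinase that acts through mitosis, was at 8.74, 14.2 and 31.6 CPM on day 0, 33.8, 8.42 and 59.5 on day 1 and 53.4, 47.3 and 58.9 on day 3 in WT. The KO libraries held 30.7, 16.5 and 51.4 CPM on day 0, 14.4, 16.8 and 57.7 on day 1 and 48.0, 47.0 and 40.05 on day 3. The WT day 3 libraries exceeded those of day 0, at 1.54 ± 0.66 (SE, adjusted p = 0.0639), and those of KO overlapped at 0.45 ± 0.64 (SE, adjusted p = 0.592). Aurkb, the kinase of the chromosomal passenger complex, was at 11.0, 15.6 and 19.95 CPM on day 0, 29.7, 10.7 and 31.1 on day 1 and 25.9, 21.6 and 24.2 on day 3 in WT. Levels in KO were 17.0, 13.8 and 30.2 CPM on day 0, 13.1, 10.03 and 39.0 on day 1 and 23.9, 24.2 and 18.3 on day 3. It had the smallest difference of the 12, with 0.62 ± 0.48 (SE, adjusted p = 0.283) in WT and 0.12 ± 0.47 (SE, adjusted p = 0.856) in KO. Birc5, which encodes survivin of the same complex, was at 7.58, 12.4 and 26.2 CPM on day 0, 37.0, 5.33 and 41.0 on day 1 and 44.2, 33.2 and 48.6 on day 3 in WT. The 3 KO groups had 26.6, 11.1 and 35.2 CPM on day 0, 12.4, 13.7 and 46.8 on day 1 and 36.2, 36.1 and 30.4 on day 3. It gave 1.45 ± 0.67 (SE, adjusted p = 0.0852) and 0.49 ± 0.66 (SE, adjusted p = 0.568). Aurka, Kif20a, Tpx2 and Cenpf had 1.55, 1.78, 1.40 and 1.71 in WT, with adjusted p from 0.0538 to 0.0675, just outside the threshold.

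Mki67, whose product Ki-67 coats mitotic chromosomes and marks cycling cells, was at 87.3, 109 and 106 CPM on day 0, 172, 50.8 and 206 on day 1 and 233, 161 and 280.2 on day 3 in WT. In KO it was at 94.4, 77.8 and 163 CPM on day 0, 82.6, 70.0 and 279 on day 1 and 184, 138 and 135 on day 3. The highest day 0 library, KO library 3, exceeded KO day 3 libraries 2 and 3, and the differences were 1.16 ± 0.52 (SE, adjusted p = 0.0767) in WT and 0.45 ± 0.51 (SE, adjusted p = 0.504) in KO. Top2a, the topoisomerase that untangles chromosomes, was at 34.0, 26.5 and 103 CPM on day 0, 185, 31.0 and 199.6 on day 1 and 168, 146 and 202 on day 3 in WT. Its KO levels were 87.3, 50.5 and 135 CPM on day 0, 51.0, 54.6 and 216 on day 1 and 154, 137 and 124 on day 3. That gave 1.65 ± 0.69 (SE, adjusted p = 0.0590) and 0.61 ± 0.68 (SE, adjusted p = 0.487), and the KO day 1 library 3 had more than any day 3 library.

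Set against each other, the licensing genes and the mitotic genes did not keep a fixed distance. The mean log2 CPM of the 12 mitotic genes minus that of the 9 licensing genes was -0.61 to -0.36 in the WT libraries of day 3 and -0.50 to -0.38 in those of KO. In the 5 double-hyphen libraries it was -1.77 to -1.09, so the mitotic mean lay further below the licensing mean there. In the single-hyphen WT day 1 library 1 it was -1.63, with the highest licensing mean of all libraries (6.91), whereas WT day 1 library 2, of the same day and title style, had -0.36. WT day 0 library 2, a single-hyphen library that was low in both groups, had -0.80. These are descriptions of single libraries, with no test.

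**Figure D4:**
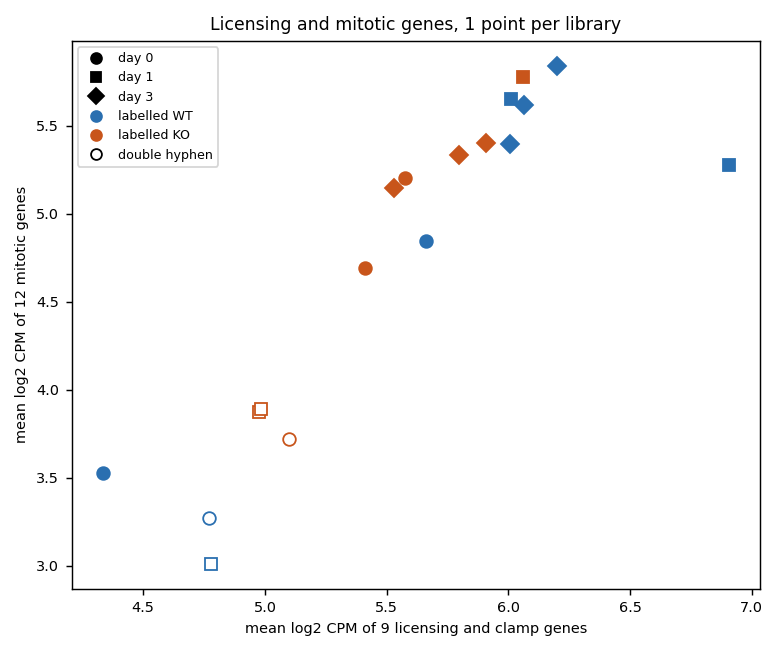
Mean log2 CPM of the 9 licensing and clamp genes (horizontal axis) and of the 12 mitotic genes (vertical axis), 1 point per library; shape gives the day, colour the label and open symbols a double hyphen in the title. Day 3 libraries sit together at the upper right, the 5 open symbols and WT day 0 library 2 at the lower left, and the single-hyphen WT day 1 library 1 lies far to the right of the rest at 6.91.

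Of the 3 CDK inhibitors 1, Cdkn1a, passed the test of day 3 against day 0 in both labels. Of all genes tested 50.2% did in WT and 42.5% in KO. Cdkn1a (ENSMUSG00000023067, chromosome 17, 29090979 to 29100722), the p53-induced inhibitor p21 and by FPKM the most abundant of the 42 genes over all libraries (84.9), was at 377, 330.0 and 390.1 CPM on day 0, 339.7, 258 and 288 on day 1 and 193, 185 and 144 on day 3 in WT. The KO libraries held 303, 337 and 279 CPM on day 0, 342, 266 and 235 on day 1 and 151, 169.8 and 212 on day 3. All 6 day 3 libraries lay below all 12 others, and it fell by 1.07 on the log2 scale in WT (SE 0.17, adjusted p = 0.000223) and by 0.79 in KO (SE 0.17, adjusted p = 0.00274). Against day 1 the differences were -0.76 ± 0.17 (SE, adjusted p = 0.00456) in WT and -0.66 ± 0.17 (SE, adjusted p = 0.0116) in KO. Cdkn1b (p27), which accumulates in resting cells, was at 65.3, 63.9 and 34.4 CPM on day 0, 18.8, 44.2 and 32.5 on day 1 and 40.4, 26.8 and 33.0 on day 3 in WT. Levels in KO were 38.4, 61.0 and 43.0 CPM on day 0, 36.7, 40.2 and 25.8 on day 1 and 33.6, 43.6 and 21.4 on day 3. Days 0 and 3 overlapped, at -0.71 ± 0.34 (SE, adjusted p = 0.0939) and -0.53 ± 0.34 (SE, adjusted p = 0.216), and the single-hyphen WT day 1 library 1, highest in licensing genes, was the lowest of all 18 for Cdkn1b. Cdkn2c (p18), an inhibitor of Cdk4 and Cdk6, was at 22.8, 25.5 and 25.8 CPM on day 0, 25.0, 15.9 and 33.8 on day 1 and 36.6, 33.6 and 42.02 on day 3 in WT. The 3 KO groups had 23.1, 24.0 and 33.9 CPM on day 0, 18.8, 13.8 and 42.1 on day 1 and 33.5, 38.5 and 24.5 on day 3. It had 0.60 ± 0.34 (SE, adjusted p = 0.157) in WT and 0.25 ± 0.34 (SE, adjusted p = 0.572) in KO.

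A wider set of 148 genes in 7 lists gave the surroundings of these 42. Between days 0 and 3, 43 rose and 14 fell in WT, and 13 rose and 17 fell in KO. That was 29.1% and 9.46% of the set in WT, beside 23.7% and 26.5% of all genes tested, and 8.78% and 11.5% in KO, beside 20.2% and 22.3%, so the share that rose was near that of all genes in WT and below it in KO. The list of other CDK inhibitors and p53 targets, 16 genes, had 5 that rose (31.2%) and 6 that fell (37.5%) in WT, and 4 (25%) and 6 (37.5%) in KO. Cdkn2b (p15) and Cdkn2a (p16 and p19Arf), neighbouring genes of which p15 and p16 inhibit Cdk4 and Cdk6, rose most of the set. Cdkn2b was at 0.412, 1.16 and 2.50 CPM on WT day 0 and at 24.5, 27.2 and 30.5 CPM on WT day 3, in ascending order, with 4.31 ± 0.62 (SE, adjusted p = 8.74e-05) in WT and 4.09 ± 0.60 (SE, adjusted p = 0.000173) in KO. Cdkn2a went from 0.412, 1.32 and 1.72 CPM to 12.3, 15.6 and 20.8 CPM in WT, with 3.80 ± 0.59 (SE, adjusted p = 0.000156) in WT and 3.95 ± 0.59 (SE, adjusted p = 0.000194) in KO. The p53 targets Sesn1 and Gadd45a led those that fell, with Sesn1 at -1.93 ± 0.19 (SE, adjusted p = 7.54e-06) in WT and -1.58 ± 0.19 (SE, adjusted p = 4.71e-05) in KO, and Gadd45a at -2.29 ± 0.81 (SE, adjusted p = 0.03004) in WT. In KO Gadd45a gave -2.002 ± 0.80 (SE, adjusted p = 0.0554). Other p53 targets of the list rose, with Eda2r and Phlda3 at 2.15 and 1.43 in WT and at 2.40 and 1.70 in KO. Trp53, the gene of p53 itself, rose by 0.60 in WT.

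Among 19 E2F, RB and MuvB factors 5 rose (26.3%) and 4 fell (21.1%) in WT, shares near those of all genes, and 1 rose (5.26%) and 4 fell (21.1%) in KO. Myc, a driver of growth and division, rose by 2.49 ± 0.50 (SE, adjusted p = 0.00106) in WT and 1.34 ± 0.48 (SE, adjusted p = 0.0363) in KO, and Mybl2, the B-Myb partner of the MuvB complex, by 1.96 ± 0.67 (SE, adjusted p = 0.0250) in WT. Rb1, the retinoblastoma protein gene, was at 61.8, 77.7 and 92.3 CPM on WT day 0 and 23.0, 26.6 and 29.8 CPM on day 3, with -1.55 ± 0.19 (SE, adjusted p = 3.17e-05) in WT and -1.39 ± 0.19 (SE, adjusted p = 0.000116) in KO. Its relative Rbl2 (p130), found in resting cells, had -1.06 ± 0.10 (SE, adjusted p = 5.88e-06) and -0.90 ± 0.10 (SE, adjusted p = 3.19e-05). Both proteins bind E2F factors and hold them back.

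In the remaining lists, 6 genes of origin firing and the fork rose and 1 fell of 33 in WT, a share that rose of 18.2% and below that of all genes, with Cdc7 at 1.29, Orc6 at 1.15 and Rfc1 at -0.60. In KO 1 rose (3.03%) and 3 fell (9.09%), where 20.2% of all genes rose and 22.3% fell. Of 14 genes of nucleotide supply 8 rose (57.1%) and 1 fell in WT, among them Shmt1 of the thymidylate cycle at 2.20, Cad of pyrimidine synthesis at 1.66, and the salvage kinase Dck at -1.88. Of these 14, 3 rose (21.4%) and 1 fell (7.14%) in KO. Of 31 kinetochore and spindle genes 9 rose (29.0%) in WT, led by Spc24 at 2.12 and Kif2c at 1.88, and in KO 1 fell (3.23%). Checkpoint and ubiquitin ligase genes rose 8 times of 20 (40%) in WT, against the 23.7% of all genes, with Ccnf at 1.98 and Cks1b at 1.82, and 4 times (20%) in KO. Of 15 condensin and cohesin genes 2 rose (13.3%) and 2 fell (13.3%) in WT, and 2 fell (13.3%) in KO, shares below those of all genes. Smc1a and Rad21 of cohesin were at 0.34 and 0.31, and Ncapg2 and Stag2 at -1.37 and -0.46 (log2, WT day 3 against day 0).

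Day 1 of RANKL was set against day 0 and against day 3. Against day 0, none of the 42 genes passed in edgeR in either label, where 2.35% of all genes tested passed in WT and 0.0211% in KO. In WT 14 had an unadjusted p under 0.05, against 20.5% of all genes, and 13 of them were higher, against 11.6%. In DESeq2 5 passed in WT, against 8.57% of all genes. In KO none of the 42 had an unadjusted p under 0.05 (10.2% of all genes) or passed in DESeq2 (1.23%). The median log2 fold change was 0.92 in WT and 0.14 in KO. The WT median ran from 0.60 (single-hyphen library 1 of day 1 left out) to 1.59 (library 3 of day 0 left out). The KO median turned to -0.56 when library 3 of day 1 was left out and to -0.05 when library 2 of day 0 was, and it was 0.66 with single-hyphen libraries alone. Leaving out WT day 0 library 3 made the WT count 5 (of all genes, 7.35%), and leaving out the double-hyphen library of WT day 1 made it 13 (of all genes, 12.4%). From day 1 to day 3, 2 rose (Ccnd2 and Cdk4) and 2 fell (E2f1 and Cdkn1a) in WT, where 12.7% of all genes rose and 19.3% fell. In KO 1 rose (Cdk4) and 1 fell (Cdkn1a), where 12.5% rose and 15.5% fell. None of these calls, in WT or in KO, was made in all 15 alternative fits. In WT 2 were left when either the double-hyphen library of day 1 or library 3 of day 3 was dropped (of all genes, 20.3% and 19.6%). In KO dropping library 3 of day 1 gave 4 (of all genes, 29.0%). Dropping library 1 of day 1, or library 1 or 2 of day 3, gave 1 (of all genes, 15.8%, 19.5% and 15.4%). With all libraries 32.0% of all genes were called in WT and 28.0% in KO.

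Libraries labelled KO were compared with those labelled WT on each day, the comparison for which the study was made. None of the 42 genes passed in edgeR or in DESeq2 on day 0, 1 or 3, where 0.119%, 0.112% and 0.140% of all genes tested passed in edgeR and 0.449%, 0.534% and 1.65% in DESeq2. At an unadjusted p under 0.05 in edgeR, 0 genes differed on day 0, 4 on day 1, all lower in KO, and 0 on day 3, where 7.59%, 7.90% and 10.7% of all genes did. The median difference of the 42, KO minus WT, was 0.42 on the log2 scale on day 0, -0.30 on day 1 and -0.24 on day 3. With 1 library left out, the day 0 median ran from 0.20 (KO library 3) to 0.96 (WT library 3). The day 1 median had no stable sign, at 0.02 with the title style in the model, 0.07 with single-hyphen libraries alone, 0.0097 without the single-hyphen WT library 1 and -1.05 without KO library 3. On day 3, 36 of the 42 had a lower estimate in KO, and for 13 all 3 KO libraries lay below all 3 WT libraries, against 13.3% of all genes tested. Mcm6 and Cdk6 had the largest such differences, at -0.59 and -0.58. The test of whether the change from day 0 to day 3 differed between the labels found 0 genes among the 42 and among all genes tested (0% passed) in edgeR, 1 of the 42 (Cdk6, -0.99) at an unadjusted p under 0.05 (5.40% of all genes), and 0 of the 42 in DESeq2 (0.0281% of all genes). The larger WT counts above are therefore not shown to differ from those of KO.

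Promoters of these genes are known to carry E2F sites for replication genes and CHR and CCAAT elements for mitotic genes, so the windows from 250 bases before to 50 bases after the start of transcription were read from RefSeq (GRCm38.p6). Windows were found for 34 of the 42 genes (38 windows), and not for Ccnd1, Ccnd2, Ccne2, Mcm4, Ccna2, Aurkb, Kif20a and Tpx2. The letters searched, on both strands and allowing words to share bases, were TTTGAA and TTCGAA for CHR, CCAAT, and TTTCCCGC, TTTGGCGC, TTTCGCGC and TTTGCCGC for E2F. A CHR word was in 34.2% of the 38 windows and in 19.2% of all 32851 windows, a CCAAT word in 68.4% and 37.4%, and an E2F word in 21.1% and 2.26%. By role, 7 of the 9 mitotic genes with a window held both CHR and CCAAT and none held an E2F word, while 6 of the 8 licensing genes held an E2F word and 2 a CHR word. None of the 6 G1 genes or the 3 CDK inhibitors with a window held a CHR word. Ties in the number of kinds were broken by the number of words, which decided for Top2a. Further ties were broken by the log2 fold change of WT day 3 against day 0, which decided for Bub1. The window with the most kinds of word is shown for 1 gene of each of 4 roles, 5′ to 3′ on the gene's strand, with the words in capitals.
Cdk1 (chr10:69352863-69353162, minus strand): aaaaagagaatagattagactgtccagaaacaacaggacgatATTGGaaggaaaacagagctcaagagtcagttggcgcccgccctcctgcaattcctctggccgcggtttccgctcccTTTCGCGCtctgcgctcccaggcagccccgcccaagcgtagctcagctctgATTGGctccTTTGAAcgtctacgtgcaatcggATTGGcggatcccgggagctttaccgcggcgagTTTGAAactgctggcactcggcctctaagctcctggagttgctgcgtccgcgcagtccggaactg
Bub1 (chr2:127831810-127832109, minus strand): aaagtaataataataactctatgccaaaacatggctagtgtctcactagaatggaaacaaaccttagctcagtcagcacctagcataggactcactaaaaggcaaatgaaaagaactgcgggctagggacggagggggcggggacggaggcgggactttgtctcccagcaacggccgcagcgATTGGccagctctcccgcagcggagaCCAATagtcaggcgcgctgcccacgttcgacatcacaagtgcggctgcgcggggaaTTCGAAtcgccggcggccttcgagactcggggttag
Top2a (chr11:99024140-99024439, minus strand): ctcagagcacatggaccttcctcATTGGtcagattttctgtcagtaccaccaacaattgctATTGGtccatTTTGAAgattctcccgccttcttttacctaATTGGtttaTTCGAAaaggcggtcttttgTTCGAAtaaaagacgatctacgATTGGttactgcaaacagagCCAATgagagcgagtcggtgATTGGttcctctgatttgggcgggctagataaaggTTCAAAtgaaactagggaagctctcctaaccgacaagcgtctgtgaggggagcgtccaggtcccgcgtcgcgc
Mcm7 (chr5:138171834-138172133, minus strand): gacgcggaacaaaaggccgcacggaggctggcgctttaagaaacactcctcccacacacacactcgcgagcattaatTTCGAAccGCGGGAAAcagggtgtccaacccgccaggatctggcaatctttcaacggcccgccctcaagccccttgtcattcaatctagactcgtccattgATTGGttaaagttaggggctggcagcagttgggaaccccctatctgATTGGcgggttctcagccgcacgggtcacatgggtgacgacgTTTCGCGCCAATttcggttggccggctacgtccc
Cdk1 and Mcm7 held all 3 kinds of word, as 0.146% of all windows did, and in Mcm7 the last E2F and CCAAT words share 1 base. Bub1 held 2 CCAAT words and 1 CHR word, and Top2a 10 words of these 2 kinds. A match of letters describes the sequence and is not evidence of binding.

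**Figure D5:**
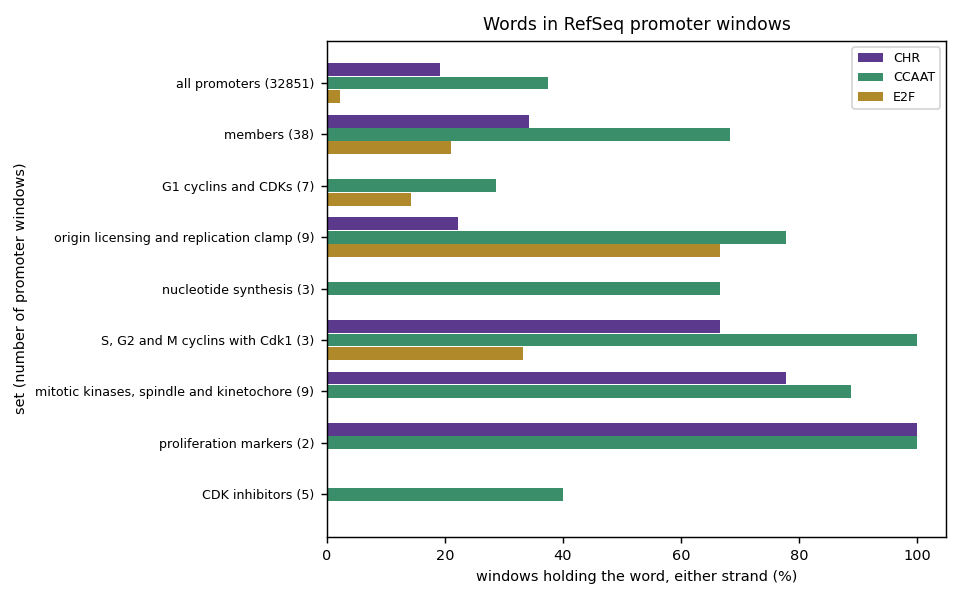
Share of promoter windows (horizontal axis, %) that hold a CHR, CCAAT or E2F word on either strand, for all windows, for those of the 42 genes and for each role, with the number of windows in brackets. CHR and CCAAT bars are longest in the cyclin, mitotic and marker rows, and the E2F bar in the licensing row, at 66.7% of 9 windows.

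The exons of 9 of the 42 genes share bases with the exons of a tested gene on the other strand, and whether the counting used strand is not given in the sources used here, so reads of the pairs cannot be told apart. Among the genes that rose these were Ccnd1 (with LTO1), Ccne2 (Ints8), Cdk4 (Tspan31) and Cdc20 (Elovl1), and among the others Ccnd3, Cdk2, Mcm7, Ccna2 and Kif20a.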

How the data were processed

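RNA of 18 libraries in 6 groups of 3 was extracted and sequenced by the authors, who deposited 1 table with a raw read count and an FPKM value per gene and library. FPKM was calculated by the authors with StringTie and Ballgown, scaled to exon length and library total. The build is GRCm38.p4 (mm10) per the labels, and the aligner and counter are not given in the sources used here. Counts were tested with edgeR 4.0.16 in R 4.3.3 (TMM normalization, filterByExpr, quasi-likelihood test, 1 fit over all 18 libraries with a term per group), with Benjamini-Hochberg adjustment over the 14241 genes kept and a threshold of 0.05. The procedure was tested on simulated data. CPM used TMM library sizes, log2 CPM a prior count of 2, and FPKM served to compare levels between genes. Libraries of a group differed by more than sampling noise, so none was counted as a duplicate. Libraries with the same number deviated together from their group means in all 3 pairs of KO day 0 with day 3 (correlations from 0.13 to 0.40) and of KO day 1 with day 3 (0.16 to 0.34), so the numbers qualified as pairs there, from the data alone. The tests printed did not use these pairs, and the number was added as a block in an alternative fit only.

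Values in every library are given for genes fixed by name and for the largest rise and fall within each role, and of the wider lists up to 2 called genes in each direction by size in WT. Eda2r, Phlda3 and Trp53 were added to these. The members and lists were chosen with earlier results of these data known. Alternatives were the filter, the library sizes, the replicate number as a block, the title style, the libraries in the fit, each library left out, and DESeq2 1.42.0.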

Additional observations from a re-analysis of the deposited data

How the results depend on the processing

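The number of the 42 genes called for WT day 3 against day 0 (17 in edgeR) was 29 with total counts as library sizes, 29 with the libraries of the 2 groups alone, 29 with single-hyphen libraries alone, 26 with the title style as a covariate and 30 in DESeq2 (of all genes, 50.2% in the reported fit and in turn 51.8%, 45.0%, 46.1%, 52.96% and 54.4%). With 1 library left out it ran from 6 to 34, where 39.4% to 52.6% of all genes were called. Total counts moved the median of all genes tested to 0.33 in WT and 0.29 in KO for day 3 against day 0, and the median of the 42 to 1.76 and 0.83. For KO day 3 against day 0 the count of 5 was 12 with the 2 groups alone (of all genes, 42.5% and 45.9%). It ranged from 3 to 5 with 1 library left out, where 30.6% to 36.0% of all genes were called. For WT day 1 against day 0 the count of 0 was 3 with the title style, 7 with single-hyphen libraries alone and 5 in DESeq2 (of all genes, 2.35% and in turn 7.03%, 7.002% and 8.57%). With 1 library left out it was 0 to 13, where 0% to 12.4% of all genes were called. For WT day 3 against day 1 (4) it was 2 with total counts (of all genes, 32.0% and 30.7%) and 2 to 5 with 1 library left out (19.6% to 31.8%). For KO day 3 against day 1 (2) it was 6 with the 2 groups alone, 0 with single-hyphen libraries alone and 4 in DESeq2 (of all genes, 28.0% and in turn 34.4%, 4.04% and 33.7%). With 1 library left out it was 1 to 4, where 15.4% to 29.0% of all genes were called. The counts of 0 for KO day 1 against day 0, for the 3 comparisons of labels and for the difference of the change between labels were 0 in each alternative run. The cause of these shifts was not tested.

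In WT the replicate numbers did not qualify as pairs. Libraries with the same number had correlations of deviations of 0.11, -0.02 and 0.05 for WT days 0 and 3. For WT days 1 and 3 these were -0.07, 0.09 and 0.01, and for WT days 0 and 1 they ran from -0.46 to 0.60. Over both labels, 11 of 18 such pairs were above 0.1, and 12 of 18 libraries correlated best with one of their own number. With the number as a replicate block the WT day 3 against day 0 count was 27 (of all genes, 51.7%). No other count moved by over 1.5 times, and for KO day 3 against days 0 and 1, where the numbers did qualify, the block changed no call.

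Of 1350 refits of single log2 fold changes, 20 changed sign, all of differences that had not passed the test. For WT day 3 against day 0, total counts gave 0.27 for Ccnd3, 0.13 for Cdk2 and 0.30 for E2f1, and single-hyphen libraries alone gave 0.068 for Ccnd3. With 1 library left out, Ccnd3 ran from -0.18 to 0.038, Cdk2 from -0.41 to 0.036, E2f1 from -0.092 to 0.070 and Pcna from -0.092 to 0.31. For KO day 3 against day 0, the title style gave -0.24 for Aurkb, -0.25 for Cdc6, -0.054 for Mcm3, -0.015 for Mcm7, -0.015 for Plk1 and -0.19 for Rrm2, single-hyphen libraries alone gave -0.0398 for Aurkb and -0.041 for Rrm2, and total counts gave 0.11 for Pcna. With 1 library left out, Aurkb ran from -0.073 to 0.55, Ccnd3 from -0.062 to 0.52 and Rrm2 from -0.0717 to 0.53. The precision of 3 libraries a group limits every comparison. The reported fit shares 1 estimate of spread per gene over all 18 libraries. The scatter of days 0 and 1 thus also enters the errors of KO against WT on day 3. In that comparison 0.140% of all genes were called in the reported fit and 1.17% with the day 3 libraries alone. None of the genes followed here was called in either fit.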

Other observations

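The 4 globin genes Hba-a1, Hba-a2, Hbb-bs and Hbb-bt summed to 249 to 314 reads in each of the 13 single-hyphen libraries and to 0 to 4 reads in each of the 5 double-hyphen libraries, without overlap. The erythroid genes Alas2 and Slc4a1 were at 0 in every library of all 6 groups. The summed CPM of 8 B cell markers was 7.58 to 53.6 over the 18 libraries, and that of 8 T or NK cell markers 36.9 to 229. The sum of 6 mast cell and basophil markers was 1.39 to 46.4 CPM, with its highest value on KO day 0.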
